A study of Mus musculus with 12 samples.

Results

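Constructs directed only against Tigit, Btla and Havcr2 were followed in a pooled CRISPR screen of mouse CD8+ T cells transferred into tumour-bearing mice. Constructs were taken when their target genes, read from the construct name with non-targeting positions dropped, held at least 1 of these 3 genes and no other gene. That gave 42 of the 689 constructs analysed here, or 6.10%, as 7 combinations of 1 to 3 genes with 6 constructs each, and all 42 had a value in every library. A construct was a lentiviral cassette of 4 sgRNAs in a row, in which positions with no target gene were filled by non-targeting sgRNAs. All groups used C57BL/6 T cells that had been stimulated, transduced with the library and marked by mKate2. The starting reference (SR, 3 replicates) was a frozen part of the transduced cells, not transferred. The tumour-infiltrating lymphocytes (TIL, 3 replicates) were CD8+mKate2+ cells sorted from tumours on day 7 after transfer, which was made on day 12 after tumour inoculation. The labels do not name the tumour, and the title of the deposited workbook gives Hepa1-6, a mouse hepatoma line. Each TIL replicate pooled several recipient mice, and Raji cells (a human B lymphoma line) were added as carrier for the DNA preparation. SR was read out by direct PCR and TIL by a PCR in 2 steps, so amplification and condition cannot be told apart. No label says whether the SR replicates were separate cultures, so on the SR side p-values may measure technical spread only.

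TIGIT, BTLA and TIM3 (the product of Havcr2) are inhibitory receptors that activated T cells display. TIGIT competes with the activating receptor CD226 for ligands such as PVR on tumour and myeloid cells, BTLA binds the TNF receptor family member HVEM, and TIM3 has several reported ligands, galectin-9 among them. TIM3 and TIGIT are commonly found together with PD-1 on exhausted tumour-infiltrating CD8+ T cells. The screen combined these genes with each other and with Pdcd1, Ctla4 and Adora2a, which encode the inhibitory receptors PD-1 and CTLA4 and an adenosine receptor.

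The deposited values are called scaled reads here, because their low values skip whole numbers as reads times a library factor would after rounding. In region 1 of TIL replicate 1, 115 constructs had the value 2, 98 the value 3 and 78 the value 5, but none the value 1, 4 or 6. The factor is not stated. Library totals ran from 8288404 to 25646820. Levels below are CPM (scaled reads per 1000000 of the library total), averaged over the 2 amplified regions of the construct. Region 1 spans sgRNA 1 and sgRNA 2, and region 2 spans sgRNA 2 and sgRNA 3. Detection in a TIL replicate required more than 1000 scaled reads in region 1 and in region 2. Constructs are numbered within their combination from the highest to the lowest mean SR level, so that construct 1 is the most abundant of its 6 before transfer.

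The spacers of the constructs on which the results turn are printed here because they were detected in at least 2 TIL replicates or were up at least 2-fold in both regions in at least 1. Each is written 5′ to 3′ as deposited, with the 10 bases next to the PAM in capitals, where a mismatch disturbs cutting most. Tigit and Btla lie on mouse chromosome 16 and Havcr2 on chromosome 11. The cut sites are given without coordinates (genome build not given in the sources used here).
Tigit construct 5: ggccatttatAGTGTTGACC
Havcr2 construct 1: gttacactctATCTACACCT
Havcr2 construct 2: agctgtagtaGAGTCCCCAT
Havcr2 construct 3: gccctttagcTGGTATCTGC
Havcr2 construct 5: atcagttctgAGCAACTCGT
Btla+Tigit construct 1, Tigit spacer: gtatcctggtGGGATTTACA
Btla+Tigit construct 1, Btla spacer: tctttgaaccATTGTGTTAT
Btla+Tigit construct 5, Btla spacer: ttgggactccTCGGTTATTT
Btla+Tigit construct 5, Tigit spacer: ggccatttatAGTGTTGACC
Havcr2+Tigit construct 2, Havcr2 spacer: aatcccttgcCCCAGCACAT
Havcr2+Tigit construct 2, Tigit spacer: tcacccatagGAGCCACAGC
Btla+Havcr2+Tigit construct 1, Btla spacer: gtgacttggtGTAAGCACAA
Btla+Havcr2+Tigit construct 1, Havcr2 spacer: atcagttctgAGCAACTCGT
Btla+Havcr2+Tigit construct 1, Tigit spacer: ctggaaggtgAGGCCTAGGC
Btla+Havcr2+Tigit construct 5, Havcr2 spacer: gccctttagcTGGTATCTGC
Btla+Havcr2+Tigit construct 5, Btla spacer: cagtgcaactTACTATTACG
Btla+Havcr2+Tigit construct 5, Tigit spacer: tgcaagccttACCTGTAGCG
Of the spacers in this list, 3 recur in 2 constructs each, namely the Tigit spacer ggccatttatAGTGTTGACC and the Havcr2 spacers gccctttagcTGGTATCTGC and atcagttctgAGCAACTCGT. Constructs that share a spacer are not independent.

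Before transfer the 42 constructs were present at very different levels. Their mean SR level ran from 60.8 CPM for Btla construct 6 to 7179 CPM for Tigit construct 1, with a median of 1115 CPM, against 1136 CPM over the library. The level of a construct was repeatable between SR replicates, where the median range over the 3 was 0.30 on the log2 scale and the largest 2.22. Btla+Havcr2+Tigit had the highest median SR level of the combinations, 2428 CPM, and Btla+Tigit the lowest, 399 CPM. Together the 42 constructs took 5.99, 6.09 and 6.06% of the SR reads in replicates 1, 2 and 3.

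In the tumours their joint share of reads was 8.16, 3.20 and 6.84%, so that the mean of 6.07 ± 2.57% (SD, n = 3) lay beside 6.05 ± 0.053% in SR, while the spread between replicates was much wider. This share was carried by few constructs, some of them above the threshold in 1 region only. Havcr2+Tigit construct 1, high in region 2 only, held 44.0% of the replicate 2 share. Btla+Havcr2 construct 1, high in region 1 only, had 13177 CPM in replicate 3. By region, the share was 7.04, 1.71 and 7.81% in region 1 and 9.28, 4.70 and 5.87% in region 2. In replicates 1, 2 and 3, 5, 4 and 6 of the 42 were detected, or 11.9% (Wilson 95% interval 5.19 to 25.0%), 9.52% (3.77 to 22.1%) and 14.3% (6.72 to 27.8%). Of all constructs 11.3, 8.85 and 14.1% were detected, so these shares lie near the background. Intervals cover counting of constructs only. Non-targeting constructs were detected in 16 of 252 cases (a case is 1 construct in 1 replicate), or 6.35%, against 15 of 126, or 11.9%, here. Their median SR level was 806 CPM, against 1115 CPM for the 42. Apart from 3 cases above the threshold in 1 region only, the remaining TIL values of the 42 were close to 0. Of the 252 TIL values (42 constructs, 3 replicates, 2 regions) 219 were at most 262 scaled reads, 99 of them 0, and the lowest of the 33 above the threshold was 4283. No value fell between these levels.

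Tested one by one with limma, 29 of the 42 constructs fell from SR to TIL, where 67.8% of all constructs were called lower, and none of the 42 rose, where 0.435% of all were called higher. The fallen constructs changed by between -11.98 and -5.89 on the log2(CPM + 1) scale (limma adjusted p of at most 0.000228), which understates the loss of a construct not seen. The median change of the 42 was -8.48, against -8.50 over the library. The 13 constructs that were not called lower were the 11 detected at least in 1 replicate and 2 more that exceeded the threshold in 1 region only. The TIL levels of these 13 differed widely between replicates, and their changes, from -6.52 to 0.78, had adjusted p between 0.155 and 0.648. Leaving out replicate 2 would call 2 of the 42 higher, and scaling each library on its 75th percentile of non-zero constructs would call none lower.

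Of the 7 combinations, constructs against Btla alone were lost most uniformly. None of the 6 was detected in any replicate, which is 0 of 18 cases. Over the library 11.4% of cases were detected, and 14 of the 101 combinations had no detected case. The highest TIL value of the 6 Btla constructs in any library was 12 scaled reads. They had a median SR level of 708 CPM, against 1136 CPM over the library. The most abundant of them, Btla construct 1, had 4738, 5217 and 5040.5 CPM in the 3 SR replicates and 0.383, 0.239 and 0.110 CPM in the 3 TIL replicates. SR and TIL levels did not overlap, and its log2 change was the lowest of the 42, at -11.98 ± 0.13 (SE, n = 3; limma adjusted p = 1.29e-07). As a limit from a count of 0 (3 counts of the total), 0 of 18 allows a share of up to 16.7%. That limit covers counting error only and takes the cases as independent, although each construct enters in 3 replicates. All 6 Btla constructs fell, where 67.8% of all constructs were called lower. Relative to non-targeting constructs, Btla alone had -0.21, -0.24 and -1.32 in replicates 1, 2 and 3, a mean of -0.59 ± 0.53 (SE, n = 3; limma adjusted p = 0.639), and did not pass.

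Here and below, the value of a combination is the mean log2(CPM + 1) of its 6 constructs minus that of the 84 non-targeting constructs in that sample, compared between TIL and SR. Non-targeting constructs themselves changed by -8.40 ± 0.62 (SD, n = 3), so a positive value means a smaller loss, not a gain over SR. Of the 101 combinations 0.990% were called by limma in either direction, and none of the 7 combinations described here was. With medians over the 6 constructs in place of means, 47.5% of all combinations were called and 4 of the 7 were. Those were Tigit (-0.68, limma adjusted p = 0.00682), Btla+Tigit (1.08, adjusted p = 0.00173), Btla+Havcr2 (0.38, adjusted p = 0.0428) and Btla+Havcr2+Tigit (-1.42, adjusted p = 0.000889). In these 4, at most 1 of the 6 constructs was detected in any replicate, so the TIL medians rested on undetected constructs. Their median SR levels were, in that order, 1415, 399, 715 and 2428 CPM, against 806 CPM for non-targeting constructs. How far the starting level sets the values by medians was not tested.

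Constructs against Tigit alone were detected in 2 of 18 cases, each by a different construct in a different replicate. Tigit construct 5 had 1098, 942 and 954 CPM in the SR replicates and 23619, 0.0932 and 0 CPM in the TIL replicates. It was thus 21.5 times its SR level in replicate 1, the highest ratio of any detected case of the 42 constructs, and near absent from the other replicates. Tigit construct 3 had 1564, 1315 and 1541 CPM in SR and 0.441, 0.0869 and 2609 CPM in TIL, where only replicate 3 was high. The other 4 fell, and they include Tigit construct 1, the most abundant of the 42, which had 6066, 7548 and 7924 CPM in SR and 1.04, 5.72 and 0.330 CPM in TIL. The combination had 0.76, -1.10 and -0.94, a mean of -0.42 ± 0.60 (SE, n = 3; limma adjusted p = 0.763).

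Constructs against Havcr2 alone were detected most often of the 7 combinations, in 5 of 18 cases and by 4 of the 6 constructs, where 11.4% of all cases in the library were detected. Outside the 7, Pdcd1 alone reached 6 of 18 and Adora2a+Btla+Havcr2 5 of 18. Havcr2 construct 1 had 4495, 5619 and 5443 CPM in SR and 10312, 2.36 and 11519 CPM in TIL. Replicates 1 and 3 lay above every SR replicate, at 2.29 and 2.12 times the SR level, and replicate 2 far below all of them. Havcr2 construct 2 had 2181, 2278 and 2097 CPM in SR and 21663, 2.52 and 0.0660 CPM in TIL, high in replicate 1 only. Havcr2 construct 3 had 1419, 1151 and 1249 CPM in SR and 0.116, 0.0435 and 4028 CPM in TIL, high in replicate 3 only. Havcr2 construct 5 had 1235, 1014 and 1083 CPM in SR and 0, 4360.3 and 0.0440 CPM in TIL, high in replicate 2 only. Each of the 3 replicates therefore held at least 1 Havcr2 construct, but no Havcr2 construct was held by all 3. The combination had 2.88, 1.00 and 1.44, above non-targeting constructs in 3 of 3 replicates, with a mean of 1.77 ± 0.57 (SE, n = 3; limma unadjusted p = 0.0155, adjusted p = 0.153). Above 0 in 3 of 3 replicates were 22.8% of all combinations, and 3 of the 7 were (Havcr2, Btla+Tigit and Havcr2+Tigit). The same 3 had an unadjusted limma p under 0.05 in the higher direction, as did 16.8% of all. With the median over constructs in place of the mean, the value for Havcr2 was -0.35, since fewer than 4 of the 6 constructs were detected in any replicate.

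Among the pairs, Havcr2+Tigit held the construct with the steadiest recovery. Havcr2+Tigit construct 2 had 1174, 1341 and 1363 CPM in SR and 7794, 2632 and 529.8 CPM in TIL. It was detected in all 3 replicates, as were 0.871% of all constructs, at 6.64, 1.96 and 0.389 times its SR level, so that replicates 1 and 2 lay above and replicate 3 below every SR replicate. Its change from SR was 0.78 ± 1.04 (SE, n = 3; limma adjusted p = 0.522), the highest of the 42. Relative to non-targeting constructs it was higher by 9.18 ± 1.25 (SE, n = 3; limma adjusted p = 0.0256), where 4.64% of all constructs were called higher. Leaving out replicate 1 (8.08, limma adjusted p = 0.217) or replicate 2 (8.85, limma adjusted p = 0.175) ended that call. The pair had 3.24, 4.31 and 0.057, a mean of 2.54 ± 1.03 (SE, n = 3; limma unadjusted p = 0.0402, adjusted p = 0.214), the highest value of the 7, in rank 9 of 101. Without replicate 3 it passed (3.78, limma adjusted p = 0.0162).

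Part of the Havcr2+Tigit value came from a construct whose regions disagreed. Havcr2+Tigit construct 1 had 5, 9 and 2 scaled reads in region 1 of the 3 TIL replicates and 77792, 453243 and 0 in region 2. In SR its regions ran together, with 40488, 49078 and 35572 scaled reads in region 1 and 23760, 21482 and 12108 in region 2. Its spacers are given because region 1 spans both and region 2 holds the Tigit spacer with a non-targeting one.
Havcr2+Tigit construct 1, Havcr2 spacer: ctgaaattagACATCAAAGC
Havcr2+Tigit construct 1, Tigit spacer: ctggaaggtgAGGCCTAGGC
No other construct shared its pair of spacers in either region. The value of the pair was 1.16 with region 1 only and 2.77 with region 2 only. Cases above the threshold in 1 region only made up 3 of 126 here, 1 in each replicate, and 3.19% of 2067 in the library (2.90, 1.74 and 4.93% in replicates 1, 2 and 3), and 7 of the 689 constructs showed the same region alone in at least 2 replicates.

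Btla+Tigit was detected in 3 of 18 cases. Btla+Tigit construct 1 had 1875, 2267 and 2129 CPM in SR and 15522, 0.118 and 6361 CPM in TIL. It was 8.28 and 2.99 times its SR level in replicates 1 and 3 and near absent in replicate 2. That makes it the only 1 of the 42 constructs up at least 2-fold in both regions in 2 replicates. How many of all constructs reached this in 2 replicates was not counted. Btla+Tigit construct 5 had 447, 136 and 183 CPM in SR and 0.186, 2021 and 0 CPM in TIL, high in replicate 2 only. The pair had 1.94, 2.22 and 1.11, above non-targeting constructs in 3 of 3 replicates, with a mean of 1.76 ± 0.52 (SE, n = 3; limma unadjusted p = 0.0102, adjusted p = 0.153). Without replicate 3 it passed (2.08, limma adjusted p = 0.0480). The pair also had the lowest median SR level of the 7. An undetected construct can fall by no more than its SR level. Among the 29 constructs never above the threshold the Spearman correlation of SR level with the change relative to non-targeting constructs was -0.99, as a description across constructs of the same libraries. How far the starting level enters the value of the pair was not tested beyond leaving out constructs under 200 CPM in SR, which gave 1.97.

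Btla+Havcr2 had no detected case in 18, so the same limit of 16.7% applies. Its construct 1 had 598881 scaled reads in region 1 and 0 in region 2 of TIL replicate 3, and at most 13 in the other TIL libraries. The same Havcr2 spacer, gttacactctATCTACACCT, was in Havcr2 construct 1, which was detected in both regions in that replicate, with 243481 and 102135 scaled reads. The other 5 constructs of the pair fell. The value was -0.61, 0.072 and 0.83, a mean of 0.10 ± 0.53 (SE, n = 3; limma adjusted p = 0.919), and it was -0.35 with region 2 only.

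Targeting all 3 genes together gave 2 detected cases in 18. Btla+Havcr2+Tigit construct 1 had 2829.7, 3128 and 2770.3 CPM in SR and 0.569, 0.521 and 30193 CPM in TIL. That was 10.9 times its SR level in replicate 3, where it ranked 6 of 689, and it was near absent in replicates 1 and 2. Btla+Havcr2+Tigit construct 5 had 752, 660.1 and 733 CPM in SR and 0.186, 8888 and 0.110 CPM in TIL, 13.5 times its SR level in replicate 2 only. The other 4 fell, with log2 changes down to -11.15. The combination had -1.63, 0.58 and -0.32, a mean of -0.46 ± 0.69 (SE, n = 3; limma adjusted p = 0.763).

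Relative to non-targeting constructs, limma called 8 of the 42 constructs lower, where 21% of all were called lower, and 2 higher. The 8 lower ones were never above the threshold and started from 1214 to 4999 CPM in SR, with values from -3.58 to -1.67 (adjusted p from 0.0218 to 0.0478). The median SR level of non-targeting constructs was 806 CPM. All 8 are among the 29 constructs whose value fell as SR level rose (Spearman -0.99). How far the starting level set these 8 calls was not tested. The second higher call, beside Havcr2+Tigit construct 2, was Btla construct 6, with 2.51 ± 0.51 (SE, n = 3; limma adjusted p = 0.0295). It had 49.9, 86.7 and 45.8 CPM in SR, the lowest mean of the 42, and was at 0 in all 6 TIL libraries, so its positive value came with no reads in the tumours. Leaving out replicate 1 left none of the 42 called in either direction, and leaving out replicate 3 gave 13 lower and 5 higher.

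Detection selects cases that are high in TIL, so the ratio of a detected case to SR is a description only. In 14 of the 15 detected cases the TIL level exceeded the SR level of the replicate, with a median ratio of 4.30 over the 15, against 4.59 over all detected cases of the library. Up at least 2-fold in both regions, the authors' threshold, were 4, 3 and 3 of the 42 constructs in replicates 1, 2 and 3, or 9.52, 7.14 and 7.14%, where 8.71, 7.55 and 6.10% of all constructs reached it. Over the 3 replicates 9 of the 42 reached it at least in 1, against 18.3% of all. In the authors' deposited tables of such constructs no combination of the 7 had more than 1 up construct in any replicate. Of the 7, Havcr2 and Btla+Tigit were those with 1 in each of the 3 tables. How many of all 101 combinations had an up construct in each table was not counted. The log2 enrichment of Havcr2 and Btla+Tigit in the authors' deposited tables was 1.69, 1.90 and 2.20 in replicates 1, 2 and 3. Each of the 7 with 1 up construct had that same value in its replicate in the authors' deposited tables, so it holds no more than the count.

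Most detected constructs were recovered in a single replicate, 8 of 11. Of the 42, 11 were detected at least in 1 replicate, against 26.3% of all constructs, and 3 in at least 2 replicates, against 7.11%. Replicates 1 and 3 shared 3 detected constructs of the 42, which is 60.0% of the 5 in replicate 1 and 50.0% of the 6 in replicate 3. Over the library replicates 1 and 3 shared 18 detected constructs, 23.1% of those in replicate 1 and 18.6% of those in replicate 3. Replicate 2 shared 1 of the 42 with each of the others, and that was Havcr2+Tigit construct 2 in both cases. It is 20.0% of the constructs in replicate 1 and 25.0% of those in replicate 2, where the library had 37.2 and 47.5%. For replicates 2 and 3 it is 1 of 4 and 1 of 6, where the library had 14 of 61 and 14 of 97. For the log2 change from SR, Pearson's r over the 42 constructs was 0.22 for replicates 1 and 2, 0.25 for 1 and 3, and -0.041 for 2 and 3, and Spearman's rho was 0.59, 0.45 and 0.30, as a description across constructs. Starting abundance moved with detection. In the 21 constructs with the higher SR levels 11 of 63 cases were detected and in the 21 with the lower levels 4 of 63, and the Spearman correlation of SR level with the number of replicates detected was 0.25 over the 42, against 0.40 over the library. Its part in the differences between combinations was not tested.

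The next comparison asked whether any of the 3 genes separated the 7 combinations. The 4 combinations with Havcr2 averaged 0.99 relative to non-targeting constructs and the 3 without it 0.25, a difference of 0.74 ± 0.54 (SD, n = 3), above 0 in 3 of 3 replicates. The 4 with Btla averaged 0.20 and the 3 without it 1.29, a difference of -1.09 ± 1.20, below 0 in 3 of 3 replicates. For Tigit the difference was 0.43 ± 0.78, above 0 in 2 of 3 replicates. Exact two-sided permutation of the TIL and SR labels over 6 samples gave p = 0.1, 0.1 and 0.4 for Havcr2, Btla and Tigit. The smallest p that 3 against 3 samples allow is 0.1, so none could pass, and Benjamini-Hochberg adjustment over the 10 contrasts of this family gave 0.333, 0.333 and 1. All 3 differences turned sign when medians over constructs replaced means, to -0.56, 0.42 and -0.35. Those medians rested on undetected constructs in TIL, since at most 2 of the 6 of a combination were detected in any replicate. The differences by medians therefore cannot tell recovery in the tumours from starting level. Detected cases numbered 10 of 72 with Havcr2, 10 of 72 with Tigit and 5 of 72 with Btla, or 13.9, 13.9 and 6.94%, beside 11.4% in the library. These sets share constructs.

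The title of the series names synergy, and a departure from additivity is the value of a combination minus the sum of its single-gene values. For Btla+Tigit the sum was -1.02 and the observed value 1.76, a departure of 2.77 ± 1.20 (SD, n = 3), with 1.39, 3.56 and 3.37 in the replicates. It was above 0 in 3 of 3 replicates and in each of the 9 alternatives tried (exact permutation p = 0.1, the smallest possible, adjusted p = 0.333). The alternatives reuse the same samples, and the one by medians (1.57) rests on undetected constructs in TIL. Median SR levels were 399 CPM for Btla+Tigit, 1415 CPM for Tigit and 708 CPM for Btla. Leaving out constructs under 200 CPM in SR gave 3.81, and the part of the starting level was not tested further. For Havcr2+Tigit the departure was 1.19 ± 2.79, for Btla+Havcr2 -1.08 ± 2.02 and for all 3 genes -1.21 ± 3.34 (SD, n = 3), each within the spread between replicates (exact permutation p = 0.8, 0.5 and 0.9, adjusted p = 1 for each). Replicate 1 decided the sign of the last 2, which without it became 0.016 and 0.71. The single-gene constructs enter each of these sums, so the 4 departures share samples and constructs.

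Each of the 7 combinations was then set against the same combination with 1 more checkpoint gene. Adding Pdcd1 changed the mean value by 0.013 ± 0.30, adding Ctla4 by 0.081 ± 0.43 and adding Adora2a by 0.18 ± 0.35 (SD, n = 3), each within the spread between replicates (exact permutation p = 1, 0.9 and 0.6, adjusted p = 1 for each over the 10 contrasts). The 7 pairs behind each mean ran widely in both directions. The pairs named here were chosen after the values had been seen. Adding Pdcd1 to Tigit gave 3.19 ± 1.07, above 0 in 3 of 3 replicates. Adding it to Btla+Tigit gave -1.33 ± 0.45, below 0 in 3 of 3. The lowest Pdcd1 pair was that on Havcr2+Tigit, with -1.95 ± 2.46, above 0 in 1 of 3. Adding Ctla4 gave 3.74 ± 3.11 on Tigit and -2.22 ± 2.05 on Havcr2. Adding Adora2a gave 2.13 ± 1.72 on Btla+Havcr2 and -1.72 ± 0.12 on Havcr2+Tigit (SD, n = 3). The 7 combinations averaged 0.67 ± 0.48 relative to non-targeting constructs and the other 49 checkpoint combinations 1.11 ± 0.52 (SD, n = 3). The difference of -0.44 ± 0.12 was below 0 in 3 of 3 replicates (exact permutation p = 0.1, the smallest possible). All 101 combinations averaged 0.70 ± 0.31.

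Combinations without a detected case included 6 of the 26 checkpoint combinations with Btla, 1 of the 26 with Havcr2 and 2 of the 26 with Tigit, out of 7 among the 56 checkpoint combinations and 14 among all 101. Beside Btla and Btla+Havcr2, these were Btla+Pdcd1, Btla+Ctla4, Btla+Pdcd1+Tigit and Adora2a+Btla+Ctla4+Pdcd1, each at 0 of 18 cases. Over all its constructs in the library Btla was detected in 56 of 468 cases, as was Tigit, and Havcr2 in 71 of 468, or 15.2%. The share was 236 of 2067 cases, or 11.4%, in the library, and 129 of 882, or 14.6%, in the other checkpoint constructs. These counts were chosen after the values had been seen, and the genes share constructs.

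The library held 10 different spacers against Btla, 10 against Havcr2 and 9 against Tigit, of which the 42 constructs used 10, 9 and 8. A spacer was in 13 to 20 constructs of the library, and detection of its constructs ranged from 4.17 to 17.9% of cases for Btla spacers, from 6.67 to 23.8% for Havcr2 spacers and from 2.08 to 20.8% for Tigit spacers. The Havcr2 spacer of Havcr2+Tigit construct 2, aatcccttgcCCCAGCACAT, had the highest share of the 29, with 10 of 42 cases, of which 3 were that construct. The other 3 of the 42 constructs with this spacer were not detected. The Tigit spacer of the same construct, tcacccatagGAGCCACAGC, was detected in 6 of 60 cases. The Tigit spacer shared by Tigit construct 2, which was not detected, and Btla+Tigit construct 1, which was detected in 2 replicates, gave 7 of 51 cases.

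Several spacers overlap on their target gene, and the extremes among Tigit spacers were such a pair. They are shown with the bases they share in capitals, the second being read from the opposite strand.
Tigit spacer of Tigit construct 1: acctATCATACGTATCCTGG
Tigit spacer on the opposite strand: cccaCCAGGATACGTATGAT
The spacers share 16 bases. Constructs with the former were detected in 1 of 48 cases, the lowest share of the 29 spacers, and those with the latter in 10 of 48, the highest share among Tigit spacers. A further Tigit spacer was shifted by a single base from the former, with 19 bases in common, and was detected in 6 of 51 cases.
Tigit spacer of Tigit construct 1, aligned to its neighbour: aCCTATCATACGTATCCTGG
Tigit spacer shifted along the same strand: CCTATCATACGTATCCTGGt
The former was in 4 of the 42 constructs, all undetected although they started from 2318 to 7179 CPM, the shifted spacer in 1, also undetected, and the opposite-strand spacer in none. Of the Btla spacers, the pair below also shared 19 bases, and was detected in 6 of 45 and 3 of 39 cases.
Btla spacer of Btla+Tigit construct 5, aligned to its neighbour: tTGGGACTCCTCGGTTATTT
Btla spacer shifted along the same strand: TGGGACTCCTCGGTTATTTa
These pairs were chosen after the values had been seen, and the shares were not tested against each other.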

How the data were processed

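Genomic DNA of SR and TIL cells was amplified over 2 regions of the 4-sgRNA cassette, in 3 replicates each (12 libraries). The deposited score of a construct was taken for its reads times a library factor, rounded by the authors: in the TIL libraries only 5 to 13 of the whole numbers from 1 to 20 occur. No label or header states this. Bowtie2 is named in the submitters' processing notes, with no version or role (genome build not given in the sources used here). Deposited log2 ratios of TIL over SR, made by the authors, were returned within 5e-05 by adding 10 to both values. A further deposited table per replicate counts, for each combination, the constructs whose log2 ratios reached 1 in region 1 and region 2. Of 690 library constructs 1 is not analysed here. SR columns carry no replicate number and were numbered by the table that holds them.

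Scaled reads were divided by library totals (CPM), averaged over regions and taken as log2(CPM + 1), with no filter. limma 3.58.1 in R 4.3.3 compared TIL with SR over 689 constructs, over the same relative to the non-targeting mean, and over 101 combinations, with Benjamini-Hochberg adjustment and a threshold of 0.05. The fits were tested on simulated data. Contrasts among combinations used exact permutation over 6 samples. Samples with the same number did not deviate together (r = 0.075, -0.082 and 0.086), so the block by replicate number is an alternative only. Alternatives covered left-out replicates, single regions, the pseudocount, a filter on SR level, scaling, centring, medians, thresholds and the authors' ratios. The members, lists and thresholds were chosen with earlier results of these data known. All 42 constructs and 7 combinations could be named; single constructs are described when detected, past the test relative to non-targeting constructs, or the highest or lowest of their combination. A deposited synergy column was not used (definition not given in the sources used here).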

Additional observations from a re-analysis of the deposited data

How the results depend on the processing

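Detection of few constructs per replicate limits every value. Constructs lower in TIL than in SR numbered 0 with scaling on the 75th percentile, which in TIL lies among near-absent constructs, and 31 to 33 across left-out replicates. Constructs higher in TIL numbered 0 to 2 across left-out replicates. Relative to non-targeting constructs, the 8 lower calls became 0 to 13 across left-out replicates, 13 with a pseudocount of 10 CPM and 1 with a filter of 200 CPM in SR. The 2 higher calls became 0 to 5 across left-out replicates, 5 with region 1 only, 1 with region 2 only, 5 with the pseudocount of 10 CPM, 1 with the filter and 12 when centred on the non-targeting median. With the replicate number as a block, although the numbers did not pair the samples, both counts were 0. Under that block no combination of the 7 passed (Havcr2+Tigit, adjusted p = 0.0709). Combinations past the test, 0 in the reported fit, numbered 0 to 2 across left-out replicates and 4 with medians. Medians turned the sign for Btla (0.19), Havcr2 (-0.35) and Havcr2+Tigit (-0.077), and for the mean of the 7 (-0.13). They also turned it for the differences by Tigit (-0.35), Btla (0.42) and Havcr2 (-0.56), and for the departure from additivity of Btla+Havcr2 (0.54). In TIL these medians rested on undetected constructs. Btla+Havcr2 became -0.35 with region 2 only, -0.52 centred on all constructs and -0.27 to 0.45 across left-out replicates. The mean of the 7 became 0.050 centred on all constructs. Across left-out replicates, all 3 genes together ran from -0.97 to 0.13, the addition of Pdcd1 from -0.16 to 0.12 and of Ctla4 from -0.13 to 0.29. The departures from additivity then ran from -0.42 to 2.00 for Havcr2+Tigit, from -1.98 to 0.016 for Btla+Havcr2 and from -2.28 to 0.71 for all 3 genes. Havcr2+Tigit departed by -0.50 with region 1 only. The addition of Pdcd1 gave -0.31 with region 2 only, -0.065 with the pseudocount of 10 CPM and -0.10 with the authors' log2 ratios. Counted in either region, constructs up 2-fold numbered 5 in replicate 2 and 5 in replicate 3. The causes of these moves were not tested. The other 134 recomputed summary values kept their sign, or as counts stayed near the reported ones. For single constructs and combinations 114 recomputed values kept their direction and call, 41 lost the call and 6 gained one.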
